A study of Mus musculus with 18 samples.

Results

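CpG methylation was described at 10 genes of the pluripotency network of mouse embryonic stem cells, Pou5f1, Nanog, Sox2, Klf4, Esrrb, Zfp42, Tbx3, Prdm14, Tfcp2l1 and Dppa3. The genes are given by name and were chosen with earlier results of these data known. No methylation value enters the rule that took their CpGs. Every CpG of each gene body and of 10 kb on either side was taken if it had at least 1 read in all 18 libraries. This gave 2745 CpGs, of 6143659 CpGs covered in every library and 21867550 CpGs listed. The cells lack their own Dnmt1 and were grown in serum with LIF. They stably carried, on the pPyCAGIP vector under puromycin selection, DNMT1 as WT or with W796A, W465A, W464A/W465A, W465A/W796A or W464A/W465A/W796A, so that all 6 groups share the knockout and differ in the DNMT1 put back. Each group has 3 libraries that the labels call biological replicates. Several stable lines were made per group per the labels, but whether the 3 libraries come from separate lines is not stated, so the tests measure the spread between these libraries. Methylation was read by eRRBS, an enhanced form of reduced representation bisulfite sequencing. Here DNA is cut with restriction enzymes, unmethylated cytosines are converted, and the ends of the fragments are sequenced. The comparisons address what each substitution in DNMT1 does to the methylation it maintains.

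DNMT1 copies CpG methylation to the new DNA strand after replication, and methylation fades over cell divisions when it fails. W465A and W464A/W465A change its RFTS domain and W796A its first BAH domain, both of which bind chromatin. OCT4 (from Pou5f1), SOX2 and NANOG form the core of the transcription network that keeps embryonic stem cells pluripotent, and KLF4, ESRRB, TBX3, TFCP2L1, PRDM14, ZFP42 and DPPA3 belong to the naive state of that network. The promoters and enhancers of such genes are typically kept unmethylated while they are in use, and several of them gain methylation when the cells differentiate. RNA was not measured here, so a methylation level says nothing of expression.

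The sequences around the starts show how differently the genes are built. The promoter table of RefSeq (GRCm38.p6) held 7 of the 10 genes, with 300 bases for each start, and had no entry for Tbx3, Prdm14 or Dppa3. In that window Klf4 had 40 CpGs, Sox2 27, Tfcp2l1 21, Pou5f1 and Zfp42 11 each, Esrrb 7 and Nanog 4, against a median of 7 over 32851 promoters. Shown here are the 250 bases before the first RefSeq start of 4 genes, plus strand, 5′ to 3′, and 2 further stretches on the plus strand of the same build. Capitals mark the CpGs covered in all 18 libraries. Pou5f1, at chr17:35505782-35506031, is shown because 7 of its 8 CpGs were covered. Nanog, at chr6:122707239-122707488, has 3 CpGs and none was covered, so its promoter values come from CpGs elsewhere within 500 bp of its starts. Sox2, at chr3:34649745-34649994, has 27 CpGs with 16 covered, and Tfcp2l1, at chr1:118627695-118627944, has 16 with 10 covered. The Nanog stretch at chr6:122702481-122702768 lies about 5 kb upstream of the gene, inside the tile with the lowest WT level around it, and holds 7 of that tile's 14 covered CpGs. The Pou5f1 stretch at chr17:35509188-35509275 runs from exon 2 into the intron after it and was chosen after its values were seen, because the WT libraries differ there.
Pou5f1 upstream: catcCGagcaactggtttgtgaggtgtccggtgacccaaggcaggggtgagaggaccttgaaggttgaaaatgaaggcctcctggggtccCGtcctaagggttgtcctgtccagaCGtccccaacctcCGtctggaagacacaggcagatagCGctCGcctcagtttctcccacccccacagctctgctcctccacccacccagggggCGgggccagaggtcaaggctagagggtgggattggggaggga
Nanog upstream: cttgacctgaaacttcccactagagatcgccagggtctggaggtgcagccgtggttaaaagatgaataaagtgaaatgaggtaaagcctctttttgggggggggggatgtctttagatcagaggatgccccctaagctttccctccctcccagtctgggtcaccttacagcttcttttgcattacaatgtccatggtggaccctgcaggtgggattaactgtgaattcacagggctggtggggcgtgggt
Sox2 upstream: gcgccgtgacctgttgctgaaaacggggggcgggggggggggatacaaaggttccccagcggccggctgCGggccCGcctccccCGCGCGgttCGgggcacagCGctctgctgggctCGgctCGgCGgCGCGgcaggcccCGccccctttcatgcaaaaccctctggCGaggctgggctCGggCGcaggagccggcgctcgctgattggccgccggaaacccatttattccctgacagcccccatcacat
Tfcp2l1 upstream: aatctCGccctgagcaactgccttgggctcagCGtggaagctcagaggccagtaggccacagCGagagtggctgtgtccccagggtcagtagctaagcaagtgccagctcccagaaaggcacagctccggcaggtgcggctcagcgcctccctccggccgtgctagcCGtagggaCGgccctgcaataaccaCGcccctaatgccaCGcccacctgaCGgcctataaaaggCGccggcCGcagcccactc
Nanog distal: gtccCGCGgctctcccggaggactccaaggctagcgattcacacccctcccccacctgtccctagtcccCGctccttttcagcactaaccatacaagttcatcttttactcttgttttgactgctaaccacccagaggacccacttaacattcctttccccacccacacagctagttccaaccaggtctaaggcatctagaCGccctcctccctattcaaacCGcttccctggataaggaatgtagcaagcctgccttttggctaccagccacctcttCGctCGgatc
Pou5f1 exon 2: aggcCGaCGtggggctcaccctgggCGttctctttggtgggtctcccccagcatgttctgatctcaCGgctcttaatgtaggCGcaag

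In the Pou5f1 upstream sequence, the WT libraries held 0%, 0.617% and 1.82% methylation, and all 3 libraries of W465A, of W464A/W465A and of W464A/W465A/W796A held none. The 44 to 118 reads behind those 9 zeros allow levels of up to 6.82% in the shallowest of them. The Sox2 sequence was at 0.893%, 0.220% and 0.962% in WT, and the Tfcp2l1 sequence at 2.44%, 5.62% and 0.787%. The 3 short words searched on both strands of the 300-base promoters were GGGCGG (the core of a GC box), ATGCAAAT (the octamer) and CACGTG (an E-box). GGGCGG was present in 35.7% of all promoters, ATGCAAAT in 1.74% and CACGTG in 7.15%. Klf4 held 4 GGGCGG and 1 CACGTG, Sox2 held 2 GGGCGG, Zfp42 held 2 GGGCGG and 1 ATGCAAAT, and Pou5f1 held 1 GGGCGG at its first start. None of the 3 words was found in the windows of Nanog, Esrrb or Tfcp2l1.

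The shallowest library, WT replicate 3, had 59776439 CpG calls and the deepest, WT replicate 2, had 138978763. Over all covered CpGs the mean level was 63.1% ± 7.63 in WT and 63.8% ± 11.2 in W796A (SD, n = 3 each, as for every mean here). W465A/W796A held 44.6% ± 3.61, W465A 26.4% ± 5.63, W464A/W465A 19.3% ± 2.73 and W464A/W465A/W796A 18.8% ± 2.16. A level is methylated reads over all reads, summed over the CpGs of a promoter (500 bp either side of every transcript start), a body or a flank (10 kb either side), or of a 1 kb tile. Of 30 gene regions 29 passed the coverage minimum of 3 CpGs and 10 reads in every library; the Zfp42 promoter, with 2 CpGs, did not. Of 442 tiles with a covered CpG 242 passed. Differences were tested with a quasi-binomial model fitted across all 57269 gene regions, or all 586836 tiles, with Benjamini-Hochberg adjustment, and a region is said to fall or rise where the adjusted p was under 0.05 and the group means lay at least 10 points apart. Precision rests on these reads, and limits given for 0 methylated reads cover counting error only.

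WT replicate 2 was mostly the highest WT library at these genes. It was the highest of the 3 WT libraries in 25 of the 29 member regions (86.2%) and in 10 of 10 bodies, against 59.0% of all gene regions and 66.6% of all bodies. The median body level of the 10 genes was 18.4%, 43.7% and 14.1% in WT replicates 1, 2 and 3, whereas the median over all gene bodies was 60.8%, 77.3% and 74.6%. By these medians replicate 3 was close to replicate 2 over all genes and far below it at the 10. The gap varied by gene. Replicates 2 and 3 held 44.2% and 1.32% at the Pou5f1 body and 43.2% and 8.36% at the Zfp42 body. They held 72.2% and 63.7% at the Tfcp2l1 body and 51.3% and 48.6% at the Prdm14 body. The promoters of 23 other pluripotency network genes averaged 4.31%, 9.18% and 5.79% in these libraries, and those of 13 lineage and primed-state genes 5.85%, 9.63% and 8.53%. Replicate 2 also led in W796A, in 26 of 29 member regions (89.7%, against 74.4% of all) and 10 of 10 bodies (84.8% of all). The W796A body medians by replicate were 8.01%, 28.3% and 17.7%, against 56.0%, 81.7% and 76.0% over all bodies. It led in 21 of 29 regions in W464A/W465A (75.2% of all) and in 22 in W464A/W465A/W796A (64.5% of all). In W465A/W796A, replicate 1 was the highest in 8 of 10 member bodies, and in 81.4% of all bodies. In W465A, replicates 2 and 3 lay at 22.8% and 23.4% overall and replicate 1 at 32.9%. The part of these library differences in the results was not tested, and results that rest on them are given with and without the library.

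**Figure D1:**
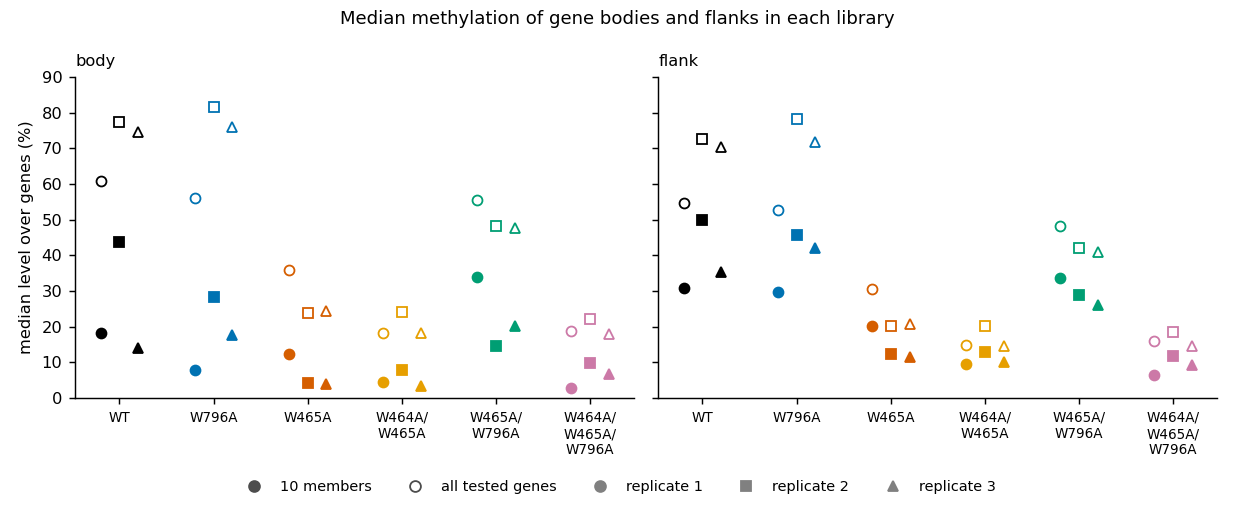
Median methylation level (percent, vertical axis) of gene bodies (left) and flanks (right) in each of the 18 libraries, by group. Filled symbols are the 10 genes, open symbols all tested genes, and the symbol shape gives the replicate. WT replicate 2 is at 43.7% for the bodies of the 10 genes while WT replicates 1 and 3 are at 18.4% and 14.1%.

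The median levels of the 10 genes in WT cells were below those over all genes. The median over the genes was 4.67% for promoters, 23.1% for bodies and 39.2% for flanks, against 7.56%, 71.0% and 66.4% over all genes. Bodies spanned a wide range, from 0.298% ± 0.116 in Sox2 to 63.5% ± 8.80 in Tfcp2l1. Of the 242 tiles, 49 lay under 10% and 129 at 50% or more in WT. In 8 genes there was a run of tested tiles under 20% around the gene's annotated start, and Esrrb and Dppa3 had none. Tiles that did not pass the coverage minimum were skipped, so a run may hold gaps. That of Zfp42 had 3 tested tiles over chr8:43305001-43310000. The Dppa3 promoter, at 35.3%, was above the upper quartile of all promoters, 26.6%. The longest runs of low tested tiles were at Sox2, from 4.4 kb upstream to 3.6 kb downstream with a mean of 0.752%, and at Pou5f1. The latter went from 3.02 kb upstream to 3.98 kb downstream with a mean of 4.28%.

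**Figure D2:**
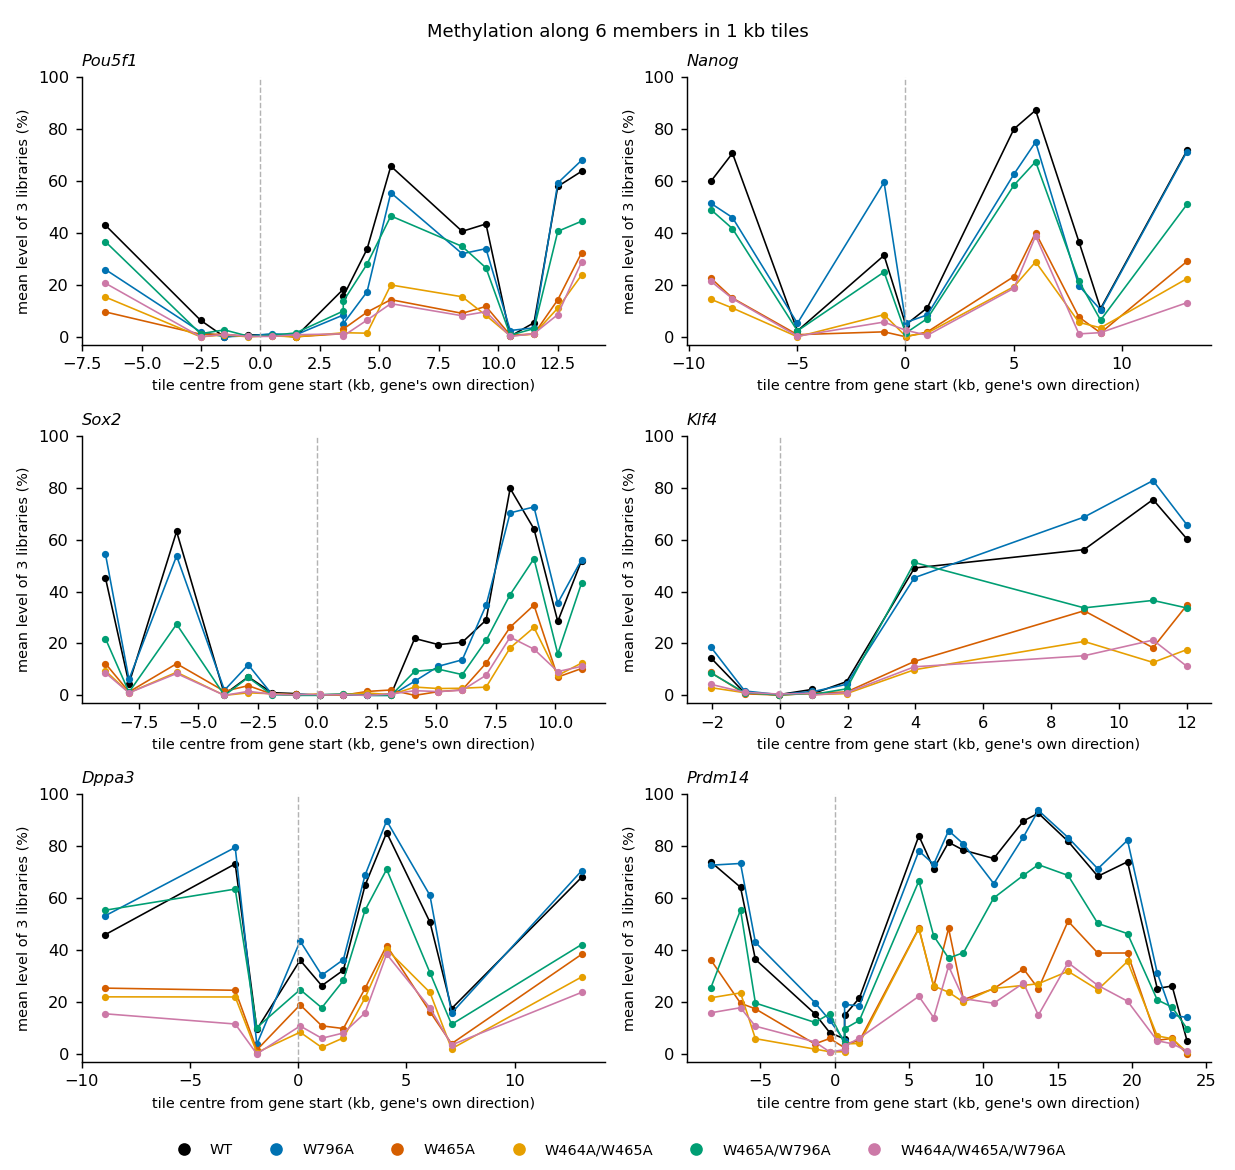
Methylation level (percent, mean of 3 libraries) of 1 kb tiles against the distance of the tile's centre from the gene start (kb, in the gene's own direction) for Pou5f1, Nanog, Sox2, Klf4, Dppa3 and Prdm14, with 1 line per group and a dashed line at the start. Tiles near the starts of Pou5f1, Sox2 and Klf4 are low in every group, and the groups separate away from them.

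W796A alone gave no detectable difference from WT at any of these genes. No member region of 29 and no tile of 242 passed, with the quasi-binomial model, nor did any member region with limma or edgeR. At an unadjusted p under 0.05 the counts were 1 of 29 regions, the Pou5f1 promoter, and 20 of 242 tiles (8.26%), against 3.02% of all regions and 3.32% of all tiles. After adjustment, over the genome 0.0% of regions and 0.00511% of tiles passed. The median difference from WT was 0.33 points for promoters, -1.996 for bodies and -0.0972 for flanks, and that for bodies ran from -6.81 to 1.96 when 1 library was left out. The spread between libraries was wide, with SEs of the body differences up to 13.9 points (median 7.81), so that differences of that size could not be told from it: W796A bodies had medians of 8.01%, 28.3% and 17.7% in the 3 libraries.

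With W465A methylation was lower in most bodies and flanks. Bodies fell in 7 of 10 genes (95.9% of all bodies fell) and flanks in 9 of 10 (94.8%), while 0 of 9 promoters did (33.0% of all promoters). For promoters the 10-point minimum largely set this count, since 7 of the 9 held under 10% in WT, as did 56.2% of all promoters. Those of Pou5f1, Esrrb, Tbx3, Prdm14 and Tfcp2l1 had adjusted p of 0.0161, 0.0119, 0.000393, 0.0379 and 0.0106 in the quasi-binomial model with differences of -2.46, -3.51, -4.09, -8.44 and -1.64 points. At an unadjusted p under 0.05 these were 5 of 9, against 69.2% of all promoters. The exceptions among bodies and flanks were the bodies of Sox2, Klf4 and Tbx3, which WT cells held at 0.298%, 9.52% and 9.53%, and the Sox2 flank, which held 11.8%. The Klf4 and Tbx3 bodies and the Sox2 flank had adjusted p of 0.000159, 0.00138 and 7.43e-05 in the quasi-binomial model and failed only the 10-point minimum. W464A/W465A lowered 1 of 9 promoters (36.1% of all promoters), 7 of 10 bodies (96.4%) and 9 of 10 flanks (96.2%). W464A/W465A/W796A lowered 2 of 9 promoters (36.3%), 7 of 10 bodies (96.5%) and 9 of 10 flanks (96.3%). Among tiles, 176 of 242 fell in W465A (91.1% of all tiles), 187 in W464A/W465A (93.4%) and 187 in W464A/W465A/W796A (93.6%). No region or tile of these genes rose in any of the 3. The 3 comparisons share the same WT libraries.

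These counts move with WT replicate 2. Without it, W465A lowered 11 of 29 regions in place of 16, W464A/W465A 13 in place of 17 and W464A/W465A/W796A 13 in place of 18. The Pou5f1, Nanog and Zfp42 bodies no longer passed in any of these 3 groups, the Dppa3 body and the Klf4 flank no longer in W465A, and the promoters of Prdm14 and Dppa3 no longer in the groups where they had passed.

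Where WT cells held at least 20%, the share that remained can be set beside that of other genes. W465A left a median of 35.8% of the WT level in 6 such bodies and 37.1% in 9 such flanks, against 41.4% and 39.9% over all genes. W464A/W465A left 29.8% and 28.3%, against 30.1% and 28.7%, and W464A/W465A/W796A left 30.3% and 29.5%, against 29.2% and 28.1%. The same WT mean sets which regions enter and divides the level. The Nanog and Zfp42 bodies and the Klf4 flank reached a mean of 20% only through WT replicate 2. In WT replicates 1 and 3 the Nanog body held 16.4% and 19.1%, the Zfp42 body 20.4% and 8.36%, and the Klf4 flank 16.2% and 22.2%. Shares without WT replicate 2 were not computed. The smaller losses in points at the 10 genes, with a median of -16.6 for bodies in W465A against -40.5 over all bodies, went with lower WT levels. Without WT replicate 2 the median over the 10 bodies was -9.26 points.

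By its median levels over the genes for promoters, bodies and flanks, W465A/W796A lay between WT and W465A. Not every region did. The mean of the Zfp42 body was 31.0%, above 24.0% in WT, and that of the Klf4 promoter 0.210%, below 0.384% in W465A. Against WT, W465A/W796A lowered 0 of 9 promoters (11.8% of all promoters; 1 had an unadjusted p under 0.05, against 29.5% of all), 1 of 10 bodies (71.5%) and 2 of 10 flanks (70.9%), and 42 of 242 tiles (32.6%). The 3 regions were the Prdm14 body, the Esrrb flank and the Tbx3 flank. Against W465A it was higher in 0 of 9 promoters (10.9%; 0 had an unadjusted p under 0.05, against 30.1% of all), in 4 of 10 bodies (76.3%), in 6 of 10 flanks (64.9%) and in 60 of 242 tiles (24.4%). Limma and edgeR each called 12 member regions higher against W465A, among them the same 10. It kept a median of 77.0% of the WT level in the 6 bodies with at least 20% in WT and 75.5% in the 9 flanks, against 73.2% and 70.1% over all genes. These regions were chosen by the same WT means as above. The calls against W465A were not stable when 1 library was left out: 0 regions passed without W465A replicate 3, 0 without W465A/W796A replicate 1 and 4 without W465A replicate 2. Leaving out a library also leaves fewer libraries to test, and the part of this in the lost calls was not tested. The calls against WT numbered 0 without WT replicate 2 and 11 without WT replicate 1.

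No difference was detectable among W465A, W464A/W465A and W464A/W465A/W796A in steps of 1 further substitution. With the quasi-binomial model 0 of 29 regions differed between W464A/W465A/W796A and W464A/W465A (0.0% of all regions), and limma and edgeR called 0. At an unadjusted p under 0.05 these were 0 of 29 regions and 1 of 242 tiles, against 0.211% of all regions and 1.19% of all tiles. Between W464A/W465A and W465A 0 of 29 differed as well (0.0%), and limma and edgeR called 0. Unadjusted, these were 0 of 29 regions and 14 of 242 tiles (5.79%), against 4.05% of all regions and 8.3% of all tiles. The differences had a median of 0.0389 points for the first and -1.58 points for the second, against -0.162 and -5.245 over all regions. SEs of the body differences were up to 3.27 points for the first and 7.22 for the second, so smaller differences could not be told from the spread.

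**Figure D3:**
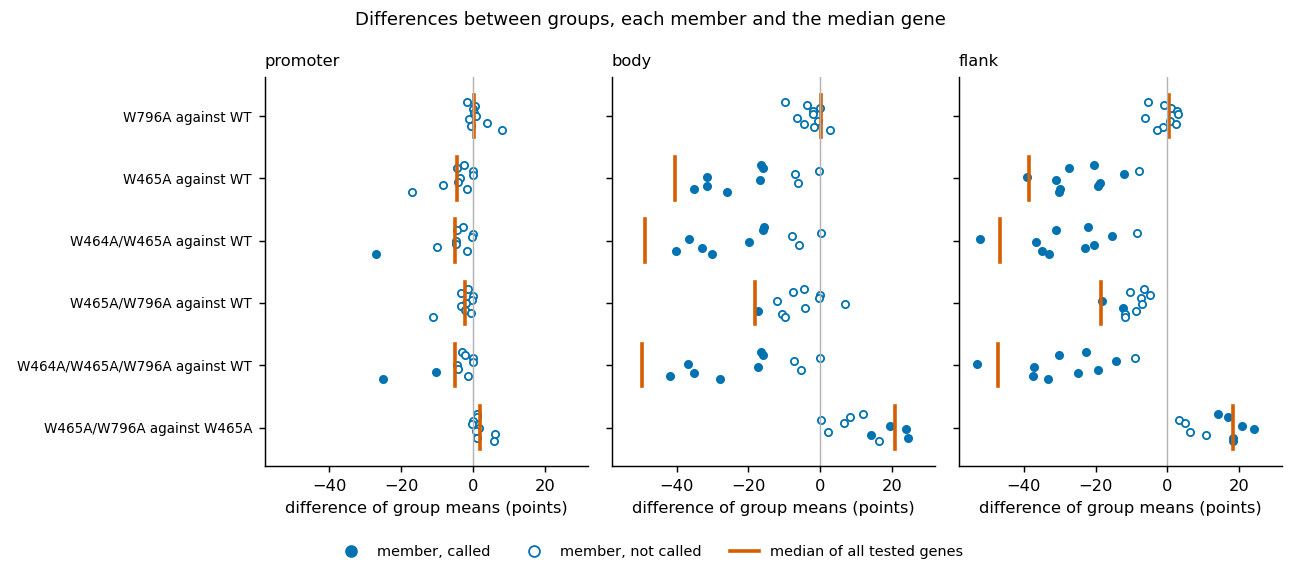
Difference of group means (percentage points, horizontal axis) for promoters, bodies and flanks, with 6 comparisons on the vertical axis. Each circle is a gene, filled where it passed the test, and the bar is the median over all tested genes. The bodies and flanks of W465A, W464A/W465A and W464A/W465A/W796A reach furthest below 0 and the W796A circles scatter around 0, none of them filled.

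Pou5f1 encodes OCT4, the POU-domain factor at the core of the network. It lies on chromosome 17 at chr17:35506018-35510772, plus strand, and 165 CpGs were covered, with the genes Tcf19 and Cchcr1 in its downstream flank. Its promoter was at 1.38%, 6.60% and 1.74% in WT, over 459 to 985 reads, and at most 3.08% in the other 15 libraries. No group passed there. The body, with 17 CpGs, was at 8.33%, 44.2% and 1.32% in WT replicates 1, 2 and 3, at 3.47%, 16.3% and 4.76% in W796A, and at 30.7%, 4.24% and 5.26% in W465A/W796A. WT replicate 2 and W465A/W796A replicate 1 thus stood far above their own groups. W465A held 2.26%, 0.671% and 1.79%, which overlapped the lowest WT library, and the difference of -16.4 ± 13.3 points (SE) had an adjusted p of 0.0125 in the quasi-binomial model, which became 0.478 without WT replicate 2.

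The 5 CpGs of the exon 2 stretch shown above set the same 2 libraries apart. They lie within 500 bp of an annotated transcript start, so they count in the promoter and not in the body. In WT replicate 2 the stretch held 37.2%, against 6.60% over all 37 promoter CpGs. Its part in the promoter differences was not tested. The 5 CpGs were at 2.13%, 37.2% and 7.37% in WT over 94 to 148 reads, and at 4.35%, 4.44% and 6.32% in W796A. In W465A/W796A they were at 28.9%, 1.39% and 10.7%. W465A held 4.58%, 2.56% and 1.71%, so that WT replicate 2 and W465A/W796A replicate 1 stood alone, the other 16 libraries reaching at most 10.7%. An annotated antisense gene, Gm19553, overlaps the stretch. The flank, in contrast, was evenly separated: 22.1%, 36.6% and 30.5% in WT, 14.1%, 6.24% and 7.47% in W465A, and 24.7%, 21.7% and 23.4% in W465A/W796A. All W465A libraries lay below all WT libraries (-20.5 ± 4.85 points) and below all W465A/W796A libraries. The highest tile in WT, chr17:35511001-35512000 just past the gene's end, was at 65.7% ± 9.52 in WT and fell to 14.3% ± 5.64 in W465A.

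Nanog encodes the homeobox factor that stabilises the pluripotent state. The gene spans chr6:122707489-122714633 on the plus strand, with 119 covered CpGs. Its promoter was at 2.08%, 8.86% and 3.06% in WT, over 96 to 158 reads, and at 0%, 0.926% and 0% in W465A, where the 2 zeros allow up to 3.66% and 5.46%. The body was at 16.4%, 31.1% and 19.1% in WT and at 11.9%, 4.55% and 2.77% in W465A. These groups did not overlap, and the fall of 15.8 ± 5.31 points had an adjusted p of 0.00272 in the quasi-binomial model, or 0.0659 without WT replicate 2. The flank fell from 42.1% ± 11.2 in WT to 14.8% ± 5.28 in W465A and 11.1% ± 2.54 in W464A/W465A, and W465A/W796A was at 31.7% ± 2.95.

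Within Nanog the levels turned sharply with position. The 1 kb tile about 5 kb upstream held 2.26% in WT over 14 CpGs, and the 7 of them in the stretch printed above held 0%, 1.14% and 0% over 52 to 88 reads, where the zeros allow up to 5.77% and 5.66%. By contrast, the body tile at chr6:122712001-122713000 held 63.6%, 85.9% and 90.6%. That tile fell to 50%, 3.51% and 16.1% in W465A and was at 61.8%, 58.6% and 54.8% in W465A/W796A. The tile just upstream of the start, chr6:122706001-122707000, was the one with the largest higher value in W796A, with means of 31.3% in WT and 59.5% in W796A, but it did not pass. It fell to 1.91% in W465A.

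Sox2 encodes the HMG-box partner of OCT4 and was the least methylated of the 10 genes. It lies on chromosome 3 at chr3:34650405-34652461, plus strand, with 342 covered CpGs. Its promoter was at 0%, 0.0517% and 0.574% in WT over 809 to 1933 reads, where the zero allows up to 0.371%, and no library of any group exceeded 0.574%. The body was at 0.298% ± 0.116 in WT and 0.0786% ± 0.0778 in W465A. At these levels a fall of 10 points was not possible. The flank was at 8.89%, 15.5% and 11.1% in WT and at 4.56%, 4.07% and 2.76% in W465A, without overlap, and W465A/W796A lay at 8.41%, 6.01% and 6.64%. Of 21 tiles 11 were under 10% in WT, and 9 fell in W465A. The tile with the largest fall, chr3:34658001-34659000, went from 79.7% ± 9.16 in WT to 26.3% ± 5.48 in W465A.

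Klf4 encodes a zinc finger factor that acts downstream of LIF. The gene spans chr4:55527143-55532466 on the minus strand, with 197 covered CpGs. Its promoter stayed at or under 1.03% in every library, with 0.405% ± 0.198 in WT. The body was at 7.03%, 13.4% and 8.11% in WT, 4.52%, 1.04% and 1.57% in W465A, and 11.1%, 6.30% and 9.74% in W465A/W796A. W465A lay below both other groups in every library. The body's methylation was concentrated in 1 of its 3 tiles, chr4:55528001-55529000, which held 35.2%, 76.7% and 35.2% in WT. That tile fell to 27.6%, 4.82% and 6.77% in W465A and was at 59.0%, 40.8% and 53.7% in W465A/W796A, a rise over W465A of 38.1 ± 9.08 points with an adjusted p of 0.00785 in the quasi-binomial model across tiles. The flank fell from 22% ± 5.67 to 9.92% ± 2.36 in W465A.

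Esrrb encodes an orphan nuclear receptor of the naive state and is the longest of the 10 genes. It covers chr12:86361117-86521628 on the plus strand, with 947 covered CpGs and 5 annotated transcript starts. The starts were unlike each other. Just after the first, the 4 covered CpGs were methylated in 78.6% to 85.7% of the 42 pooled WT reads each, and in 20% to 33.3% of the 48 to 50 pooled W465A reads each. At the internal start about 60 kb downstream, the promoter tile chr12:86421001-86422000 was at 1.07%, 2.89% and 2.48% in WT and at 2.27%, 1.65% and 0.686% in W465A. Over all starts together the promoter was at 2.03%, 11.99% and 5.04% in WT and did not pass in any group.

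The Esrrb body, with 770 CpGs, was at 46.0%, 64.9% and 52.9% in WT and at 30.3%, 19.8% and 19.2% in W465A. The groups did not overlap, and the fall of 31.5 ± 6.61 points had an adjusted p of 7.93e-05 in the quasi-binomial model. W465A/W796A was at 49.3%, 37.6% and 40.5%, above every W465A library, with an adjusted p of 0.0167 in the same model. Of the 99 Esrrb tiles, 77 were at 50% or more in WT, 91 fell in W465A and 38 rose in W465A/W796A over W465A. The flank was the most methylated of the 10, at 63.1%, 80.1% and 82.3% in WT, and fell to 36.1% ± 6.84 in W465A and 23.1% ± 1.79 in W464A/W465A. W465A/W796A reached 56.9% ± 4.17 there, which was below WT by 18.2 ± 6.51 points with an adjusted p of 0.0347 in the quasi-binomial model.

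Tfcp2l1 encodes a grainyhead-family factor downstream of LIF. The gene spans chr1:118627945-118685168 on the plus strand, with 178 covered CpGs. Its promoter was at 1.24%, 3.67% and 1.08% in WT and at 0.495%, 0% and 0.568% in W465A, where the zero allows up to 0.537%. The body, the most methylated of the 10, was at 54.6%, 72.2% and 63.7% in WT, 34.3%, 26.4% and 24.4% in W465A, 19.9%, 28.3% and 21.6% in W464A/W465A, and 22.5%, 24.4% and 17.6% in W464A/W465A/W796A. W465A/W796A held 56.6%, 50.7% and 51.3%, above every W465A library, a rise of 24.5 ± 3.54 points with an adjusted p of 0.0133 in the quasi-binomial model. The flank fell from 48.7% ± 10.8 in WT to 18.7% ± 5.13 in W465A. Within the body, the tile chr1:118651001-118652000 was an exception, at 25%, 53.0% and 10.3% in WT and 61.3%, 36.4% and 55.7% in W465A/W796A, with W465A at 49.0%, 4.71% and 11.1%. These groups overlapped and no comparison passed there.

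Tbx3 encodes a T-box factor that supports self-renewal. It lies on chromosome 5 at chr5:119670669-119684724, plus strand, with 413 covered CpGs and 5 transcript starts. Its promoters together were at 3.66%, 8.54% and 5.31% in WT and at 2.00%, 1.76% and 1.47% in W465A. The tile at the first start, chr5:119670001-119671000, held 0.248% in WT, while a tile with an internal start 4.83 kb downstream held 41.2%, 63.1% and 49.5%. That tile fell to 17.5%, 10.98% and 11.1% in W465A and to 26.6%, 7.61% and 31.5% in W465A/W796A. The flank fell in 4 of the 5 mutants: WT held 15.7%, 36.5% and 29.9%, W465A 12.3%, 6.99% and 6.77%, and W465A/W796A 11.95%, 17.2% and 15.5%. The last overlapped WT replicate 1, and its difference of -12.5 ± 6.34 points (adjusted p of 0.0183 in the quasi-binomial model) did not pass without WT replicate 2.

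Prdm14 encodes a PR-domain protein known to restrain de novo methylation in naive cells. The gene spans chr1:13113457-13127163 on the minus strand, with 199 covered CpGs. Its promoter was at 4.23%, 30.6% and 4.26% in WT, at 12.4%, 18.4% and 19.9% in W796A and at 10%, 1.49% and 2.29% in W465A. Only WT replicate 2 was above 20%. W464A/W465A/W796A, at 2.38%, 3.42% and 2.04%, passed with a difference of -10.4 ± 8.80 points (adjusted p of 0.0228 in the quasi-binomial model), and did not without WT replicate 2, where the adjusted p was 0.526. The body, by contrast, had close WT libraries, at 45.3%, 51.3% and 48.6%, and fell to 21.3%, 15.5% and 14.2% in W465A. W465A/W796A was at 38.2%, 28.2% and 27.2%, below every WT and above every W465A library. The tile at the end of the gene, chr1:13113001-13114000, fell from 92.7% ± 3.51 in WT to 25.1% ± 27.5 in W465A.

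Zfp42 encodes REX1, a zinc finger protein used as a marker of naive cells. It lies on chromosome 8 at chr8:43295063-43306980, minus strand, with 91 covered CpGs. The 2 promoter CpGs held no methylated read in WT replicates 1 and 3, which allows up to 14.3% and 21.4%, and 71.4% of 7 reads in WT replicate 2. The body was at 20.4%, 43.2% and 8.36% in WT, 12.7%, 3.72% and 5.15% in W465A, and 41.7%, 20.2% and 30.9% in W465A/W796A. WT and W465A overlapped, whereas every W465A/W796A library was above every W465A library, by 23.8 ± 6.80 points with an adjusted p of 0.0224 in the quasi-binomial model. The flank was at 42.6%, 58.4% and 40.2% in WT, 24.8%, 13.0% and 9.94% in W465A, and 44.6%, 35.4% and 39.9% in W465A/W796A. Chromosome 8 took 7.69% of the CpG calls in WT replicate 1 and 7.81% and 7.72% in W465A/W796A replicates 2 and 3, against 5.27% to 6.55% in the other libraries. Its part in the Zfp42 levels was not tested.

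Dppa3 encodes STELLA, which protects methylation in the zygote. It covers chr6:122626410-122630272 on the plus strand, with 94 covered CpGs. Its promoter was the most methylated of the 9 tested, at 13.0%, 40.9% and 51.9% in WT over 52 to 149 reads, and 36.5%, 54.8% and 38.8% in W796A. It was at 11.4%, 26.0% and 17.1% in W465A and at 32.1%, 20.4% and 19.8% in W465A/W796A, both of which overlapped WT and did not pass. The 3 libraries of W464A/W465A, at 6.78%, 12.4% and 5.33%, lay below all WT libraries, a fall of 27.1 ± 11.8 points with an adjusted p of 0.00514 in the quasi-binomial model. W464A/W465A/W796A was at 5.47%, 19.2% and 6.25% and fell as well. Over the pooled WT reads, 16 to 23 per CpG, the 5 covered CpGs from -154 to -98 bp of the start were at 35.3% to 52.9%, and over 21 reads the 4 from 104 to 184 bp after it were at 4.76% to 14.3%. The body was at 28.7%, 60.6% and 33.5% in WT and 28.7%, 5.82% and 10.2% in W465A, where replicate 1 lay just under the lowest WT library. The flank was at 39.9%, 50.9% and 52.8% in WT, 19.4%, 14.7% and 19.2% in W465A, and 41.5%, 37.3% and 29.5% in W465A/W796A.

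**Figure D4:**
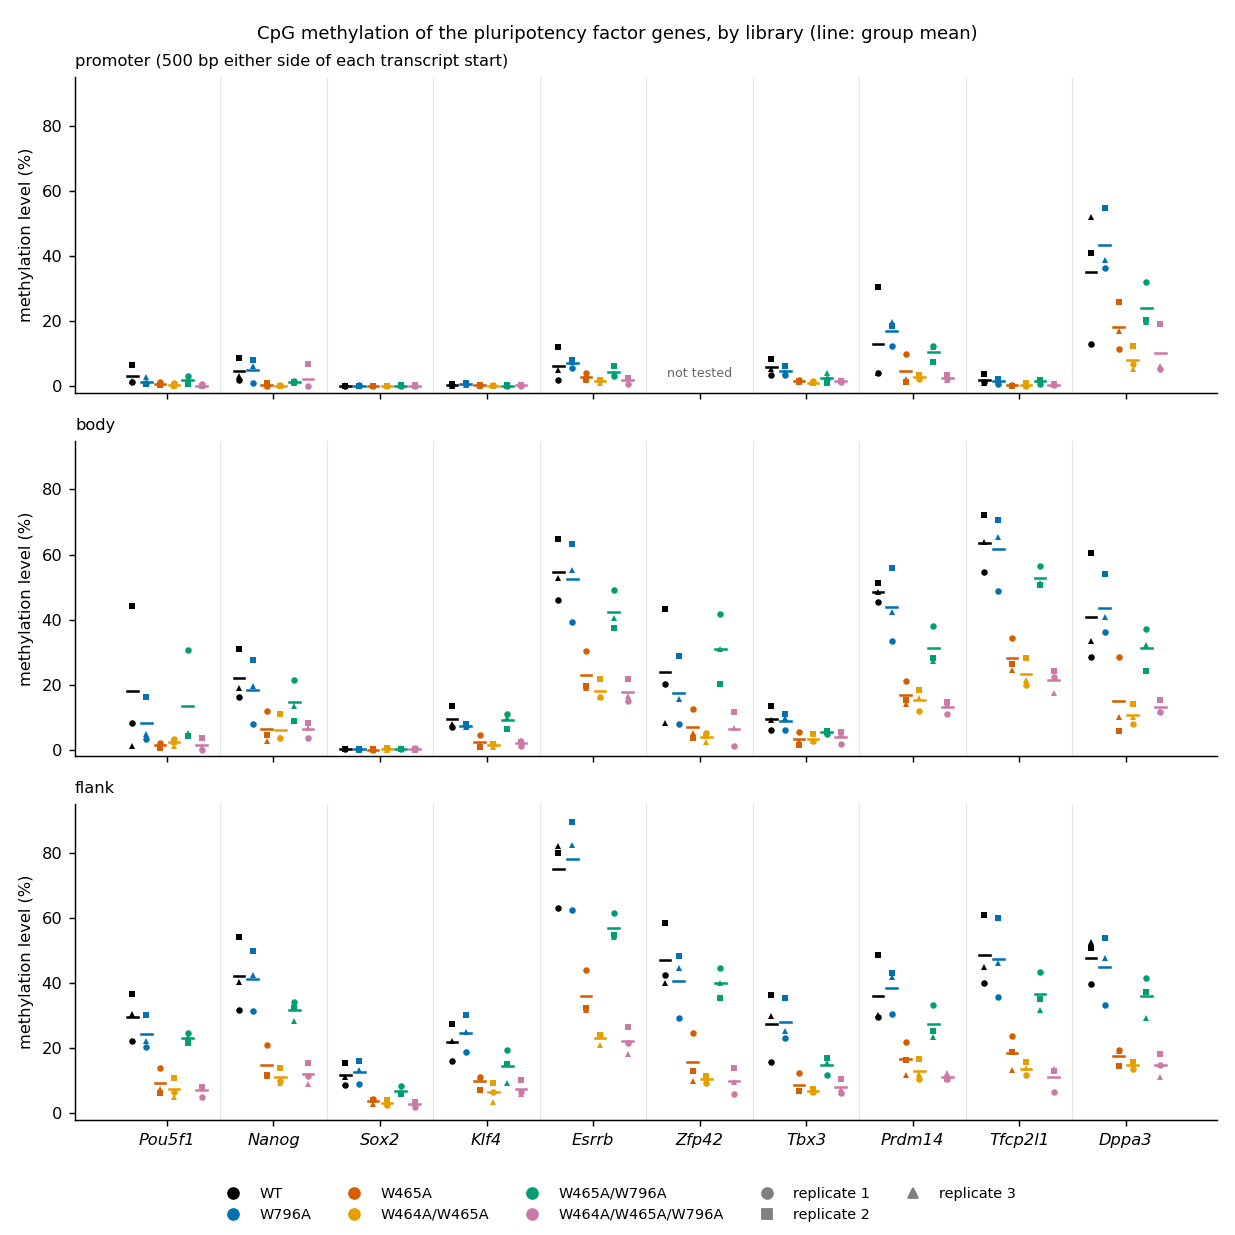
Methylation level (percent, vertical axis) of the promoter, body and flank of each gene in each of the 18 libraries, with colour for the group, symbol shape for the replicate and a line at the group mean. WT replicate 2 lies far above the other WT libraries at the Pou5f1 body (44.2% against 8.33% and 1.32%), and the flanks of Pou5f1 and Tfcp2l1 separate W465A from WT without overlap.

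Whether W796A acts differently with W465A than without it was tested as a departure from additivity in log odds (the logarithm of methylated over unmethylated reads). The points printed beside it are differences of library means, which that test does not address directly. It passed in 4 of 29 member regions, each toward higher methylation, where 6.1% of all regions passed. These were the flanks of Pou5f1, Zfp42 and Dppa3 and the body of Tfcp2l1. At the Tfcp2l1 body W796A went with -1.86 points against WT and with 24.5 points against W465A, a difference of 26.3 ± 9.05 points with an adjusted p of 0.0478 in the quasi-binomial model. Limma called 0 of the 29 and edgeR 4, of which 2 were the same regions. With the replicate number as a block 0 of the 29 passed. Without WT replicate 2 the count was also 0, and without WT replicate 1 it was 12.

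Among other genes of the network, 23 of 24 listed promoters were tested. With W465A 3 of these fell, with W464A/W465A 4, with W464A/W465A/W796A 4 and with W465A/W796A 0, while 0 differed in W796A, and 1 rose in W465A/W796A over W465A. Over all promoters the shares were 33.0%, 36.1%, 36.3%, 11.8%, 0.0% and 10.9%. Of the 23 promoters 18 held under 10% in WT and could not fall by 10 points. Of 13 promoters of lineage and primed-state genes 1, 2, 1, 0, 0 and 0 did so in the same order, and 11 of them held under 10% in WT. The widest falls in W465A were at Elf5, a trophoblast factor, which went from 52.7% ± 12.8 in WT to 30.7% ± 6.72, and at Stat3, the effector of LIF, which went from 40.4% ± 13.6 to 18.8% ± 7.34. In W465A/W796A the Stat3 promoter was at 32.6%, 31.9% and 36.2%. The median difference in W465A was -2.68 points for the network promoters and -1.89 for the lineage promoters, against -4.50 over all promoters.

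For the promoters with at least 10% in WT, the most similar among 17156 other promoters over the 18 libraries were, for Prdm14, those of Plscr4 and Rab27a, with root mean square differences of 2.35 and 2.75 points. For Dppa3 they were those of Fbxw18 and Npr2, with 5.91 and 6.08 points.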

How the data were processed

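Per the labels' protocols, the restriction enzymes MspI, BfaI and MseI cut the genomic DNA, which was converted with bisulfite and sequenced. The submitters' processing notes name Bismark 0.18.1, Bowtie 1.2 and cutadapt 1.2.1 and the mouse build GRCm38. The authors deposited 1 table with, per CpG and library, the count of methylated reads and the count of all reads, whole numbers with no normalization. Removal of duplicates is not given in the sources used here, and reads without molecular identifiers are not independent molecules. All 2745 CpGs used were CG in GRCm38.p6 at the listed positions, and genes came from GENCODE M21.

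CpGs with at least 1 read in all 18 libraries were summed into promoters, bodies, flanks and 1 kb tiles, and units with at least 3 CpGs and 10 reads per library were kept. Where a window held another protein-coding gene, its CpGs stayed in the flank. A quasi-binomial logistic model was fitted to the summed counts of all 18 libraries, the dispersion was squeezed across units as in limma's squeezeVar, and an F test with Benjamini-Hochberg adjustment over 57269 regions or 586836 tiles followed. The SE of a difference comes from the spread of the libraries of the compared groups and weighs them equally. The F test instead weighs each library by its reads and uses 1 dispersion over all 6 groups. WT replicate 2, the deepest library, therefore generally weighs most among the WT libraries in the p-values. Work was done in Python 3.11.15 with numpy 2.4.6, scipy 1.17.1 and pandas 2.3.3. Limma 3.58.1 (log2 ratios of the deposited counts, 0.5 added) and edgeR 4.0.16 in R 4.3.3 were alternatives, beside other coverage minimums, promoter sizes, minimum differences, no squeezing, a replicate block, fits of the compared groups alone and leaving out each library.

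The model was tested on simulated data before use.

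The 10 genes and the gene lists were chosen with earlier results of these data known. All 10 were named. Within a gene the named tiles are those with the highest and lowest WT level and with the largest and smallest difference per mutant. The internal-start tiles of Esrrb and Tbx3, the single CpGs described and the exon 2 stretch of Pou5f1 were chosen after their values were seen. For each promoter with at least 10% in WT the 2 most similar promoters are named, and from the lists the 2 promoters with the largest fall in W465A. Same-numbered libraries of WT and W796A deviated together (r of 0.554, 0.427 and 0.216 across regions, which are not independent replicates) which meets the rule set for pairing, although no label names what would pair them. The values printed come from the fit without the block, and the blocked count stands beside a result of these groups where the block moves it by over 1.5 times. Other pairs of groups did not all exceed 0.1. Knockout cells without DNMT1 were not used here.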

Additional observations from a re-analysis of the deposited data

Results flagged for a closer look

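In 4 regions the effect of W796A on the log odds of methylation differed between cells with and without W465A by the test of additivity. In points, a scale that was not itself tested, the effect with W465A minus that without it was 19.4 at the Pou5f1 flank and 30.3 at the Zfp42 flank. It was 26.3 points at the Tfcp2l1 body and 21.2 points at the Dppa3 flank. The adjusted p in the quasi-binomial model across all regions were 0.0465, 0.0475, 0.0478 and 0.04999, all at the edge of the threshold. In each, W796A libraries overlapped WT libraries, and every W465A/W796A library lay above every W465A library. With the replicate number as a block all 4 calls were lost. Of 29 alternatives, the call was lost in 18 at the Pou5f1 and Zfp42 flanks, in 20 at the Tfcp2l1 body and in 21 at the Dppa3 flank. The adjusted p over these alternatives and the 4 regions ran from 0.0112 to 0.228. Such a departure was called in 6.1% of all gene regions.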

How the results depend on the processing

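With a minimum difference of 25 points, member regions lower than WT numbered 9 for W465A, 10 for W464A/W465A, 9 for W464A/W465A/W796A and 0 for W465A/W796A, 0 were higher in W465A/W796A than in W465A, and departures from additivity numbered 2. With no minimum difference W464A/W465A had 26 and W465A/W796A 6. Limma gave 1 for W465A/W796A against WT and 0 departures. With at least 5 reads per CpG, 6 regions were higher in W465A/W796A than in W465A. Departures numbered 2 with no coverage filter, 0 with no squeezing and 0 with the replicate block. Among tiles, at least 5 CpGs and 20 reads left 110 lower in W465A, 116 in W464A/W465A and 117 in W464A/W465A/W796A. With at least 5 reads per CpG these were 58, 62 and 62, W465A/W796A had 12 lower than WT, and 15 were higher than in W465A. Without squeezing these last counts were 23 and 15, and with the replicate block W465A/W796A had 26 tiles lower than WT. The block gave 0 regions for W796A, also in WT and W796A alone, a fit chosen after seeing the data. With at least 5 reads per CpG the median differences from WT were -1.85 points for promoters and -18.0 for flanks in W464A/W465A, and -17.9 for flanks in W464A/W465A/W796A. The cause of these shifts beyond the smaller number of regions or tiles was not tested.

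Leaving out 1 library at a time, regions lower than WT ranged from 11 to 18 for W465A, 13 to 19 for W464A/W465A, 13 to 19 for W464A/W465A/W796A and 0 to 11 for W465A/W796A. Regions higher in W465A/W796A than in W465A ranged from 0 to 13, and departures from 0 to 12. Tiles ranged from 0 to 1 in W796A and 0 to 77 in W465A/W796A against WT, and 0 to 86 against W465A. W465A/W796A against WT had 0 tiles without WT replicate 2, 77 without WT replicate 1, and 16 and 5 without its own replicates 2 and 3. Against W465A the count was 0 without W465A/W796A replicate 1, 1 without W465A replicate 3 and 10 without W465A replicate 2. The median promoter difference ranged from -5.18 to -0.78 points in W465A and from -5.77 to -1.20 in W464A/W465A, the smallest sizes without WT replicate 2. No named result changed direction with its call. With 3 libraries per group and the spread seen in WT, a region that did not pass may still differ.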
